A study of Anthurium andraeanum with 18 samples.

Results

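DREB2B is a transcription factor gene of the drought and heat response, and in the transcript assembly of Anthurium andraeanum leaves it was represented by 2 transcript groups, TRINITY_DN53016_c0_g1 and TRINITY_DN40275_c0_g1. They are the 2 rows, of 132108 in the table, that carry the name Dehydration-responsive element-binding protein 2B. Both were chosen by their higher counts in the cold libraries of the cultivar Oregon than in its 25 °C libraries, with no threshold, so the Oregon values below are a description and carry no test. The stated choice did not use the Fantasy love libraries, although their results were known when it was made, and for DREB2B tests are given in Fantasy love alone. For other genes Oregon calls are given as counts.

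DREB2 proteins carry an AP2 domain and bind the dehydration-responsive element in the promoters of protective genes. In Arabidopsis, DREB2A is made and then degraded in unstressed cells, through the DRIP ubiquitin ligases and BPM adaptor proteins, and it activates heat stress factor genes such as HSFA3 once it accumulates. A related branch, the DREB1 or CBF factors, acts in the cold downstream of ICE1 and the calmodulin-binding CAMTA factors. In rice, the DREB2B transcript is known to be alternatively spliced under stress.

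The study used full-flowering plants of 2 cultivars, Fantasy love and Oregon, kept in growth chambers with 12 h of day and 12 h of night. Controls stayed at 25 °C, and the cold-treated plants had 3 days at 15 °C, then 3 days at 6 °C, then 3 days at 4 °C. Leaves were taken at 25 °C and at the end of the 6 °C and 4 °C steps. The 6 groups were therefore Fantasy love at 25, 6 and 4 °C and Oregon at 25, 6 and 4 °C, with 3 RNA-seq libraries each and 18 in all. The 4 °C leaves had also passed through the 15 °C and 6 °C steps, so temperature and time in the cold cannot be told apart. The time label of the control libraries is 0 days, while the Oregon control titles give 3 days. Each library title carries the words biol rep and a number. In the stated design, experimental replicates numbered 3, and the biological ones within each also 3. Neither the titles nor the design says whether the 3 libraries of a group came from separate plants. The labels do not give the hour of sampling. The p-values therefore measure the spread between these libraries.

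Libraries held 14769978 to 21911157 estimated counts, and 51670 transcript groups, called genes below, had enough counts to be tested. Replicate 2 of Fantasy love at 6 °C stood apart: 59670 genes were detected in it, the fewest of the 18 libraries, and its log2 expression correlated at 0.857 and 0.867 with the other libraries of its group, which correlated at 0.915 with each other. Transcripts named for chlorophyll a-b binding proteins and the Rubisco small subunit, the markers of leaf mesophyll (18 of 28 rows tested), took 0.542 to 1.13% of the counts at 6 °C and 0.480 to 0.640% at 4 °C in Fantasy love, against 6.66 to 7.69% at 25 °C. In Oregon they took 0.579 to 0.670% at 6 °C and 0.897 to 1.15% at 4 °C, against 6.02 to 7.51% at 25 °C, with 5 to 11 of the 28 rows at 0 in any group. Epidermis markers (25 of 29 rows tested) moved the same way in Fantasy love, with 0.0491 to 0.104% at 6 °C and 0.00661 to 0.0107% at 4 °C, against 0.0964 to 0.259% at 25 °C. Guard cell markers (10 of 14 rows tested) took 0.00271 to 0.00546% at 6 °C and 0.000478 to 0.000901% at 4 °C, against 0.00673 to 0.00720% at 25 °C, and phloem markers (6 of 8 rows tested) 0.00228 to 0.00721% and 0.00735 to 0.00806%, against 0.00358 to 0.00498%. Flower organ markers (4 of 9 rows tested) were a small share that was higher in the cold: 0.00192 to 0.00447% at 6 °C and 0.00244 to 0.00340% at 4 °C in Fantasy love, against 0.000301 to 0.000476% at 25 °C, and 0.00395 to 0.00519% at 6 °C and 0.00451 to 0.00530% at 4 °C in Oregon, against 0.000438 to 0.000699% at 25 °C. The part of these shifts in the DREB2B values was not tested, and in whole leaves fewer cells of a type and less RNA per cell cannot be told apart. The median of all tested genes lay 0.30 (log2) above 25 °C at 6 °C and 0.39 above it at 4 °C in Fantasy love. Under quantile normalisation these shifts were 0.045 and 0.149, and the split of called genes at 6 °C was 9800 higher and 10323 lower in place of 12279 and 8591.

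The annotation of the 2 groups is nearly the same. Both have the AP2 domain, the same orthologous group and the same 5 gene ontology terms, and their name comes from the rice protein. DN53016_c0_g1 has a listed length of 3596 bases and 2 assembled isoforms, and its best hit is a grape (Vitis vinifera) protein named DREB2C. DN40275_c0_g1 has a listed length of 3973 bases and 8 isoforms, and its best hit is a DREB2B-like protein of date palm (Phoenix dactylifera). Each is the only row with its assembly number. Close relatives can share reads in such an assembly, and how the authors' counting divided reads between these groups is not given in the sources used here. No genome was used here, so neither group has a chromosomal position.

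Both groups were barely detected in Fantasy love leaves at 25 °C and abundant in the cold. DN53016_c0_g1 had 143, 336 and 145 CPM (counts scaled to library size by the trimmed mean method, TMM) in the 3 libraries at 6 °C, and 85.3, 95.3 and 92.3 CPM at 4 °C, against 2.49, 0.978 and 0.447 CPM at 25 °C. All 6 cold libraries lay above all 3 control libraries, which rested on 45, 18 and 7 estimated counts. The mean was 208 ± 111 CPM at 6 °C and 91.0 ± 5.12 CPM at 4 °C, against 1.31 ± 1.06 CPM at 25 °C (SD, n = 3 each). The fitted log2 fold change was 7.30 ± 0.56 (SE; adjusted p = 3.38e-08) at 6 °C and 6.10 ± 0.53 (adjusted p = 6.84e-08) at 4 °C, by edgeR's quasi-likelihood test adjusted over all 51670 genes. A gene is called here when its adjusted p is below 0.05 and its log2 fold change is at least 1 in size. Called rises were common, at 23.8% of genes at 6 °C and 28.5% at 4 °C, so the call itself does not set DREB2B apart. The share of all genes with every cold library above every control library was not counted, so that gap does not either. Without the deviating replicate 2 at 6 °C, the log2 fold change of DN53016_c0_g1 was 6.73 (adjusted p = 1.34e-09). Leaving out replicate 1 at 25 °C, which held 45 of the control counts, moved it the other way, to 8.16 (adjusted p = 6.19e-08) at 6 °C and 6.89 (adjusted p = 7.59e-08) at 4 °C.

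DN40275_c0_g1 rose as well, with less spread than DN53016_c0_g1 at 6 °C and more at 4 °C. It had 85.3, 104 and 111 CPM at 6 °C, and 127, 131 and 180 CPM at 4 °C, against 1.16, 1.20 and 0.957 CPM at 25 °C. Again no cold library came near the control libraries, whose counts were 21, 22 and 15. The means were 100.3 ± 13.4 CPM at 6 °C and 146 ± 29.7 CPM at 4 °C, against 1.11 ± 0.129 CPM at 25 °C (SD, n = 3 each). Its log2 fold change was 6.49 ± 0.29 at 6 °C (adjusted p = 4.16e-10) and 7.04 ± 0.29 at 4 °C (adjusted p = 1.14e-10). In both comparisons this was the lowest p of the 51670 genes tested with edgeR, although by the size of the log2 fold change DN40275_c0_g1 was at rank 1363 at 6 °C and 1040 at 4 °C. DN53016_c0_g1 stood at rank 159 by p at 6 °C and 691 at 4 °C.

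**Figure D1:**
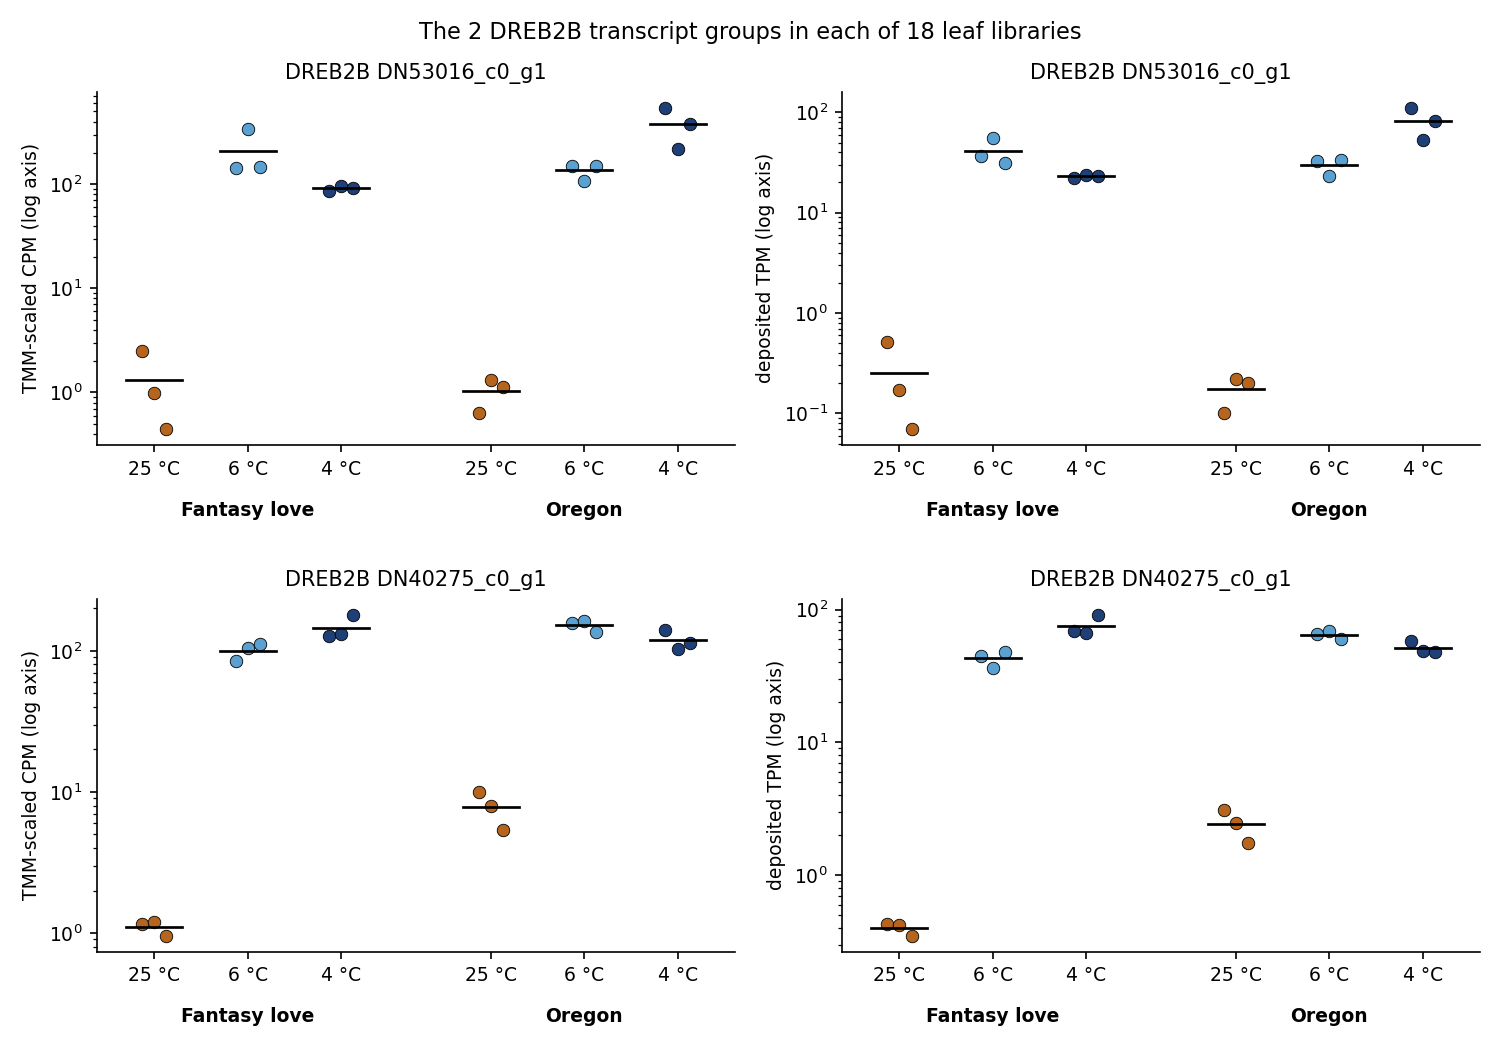
Level of each DREB2B transcript group in every library, as TMM-scaled CPM (left) and as the deposited TPM (right), both on log axes. Points are libraries and bars are means of 3. All cold libraries of both groups lie above all 25 °C libraries of the same cultivar, a gap whose share among all genes was not counted. At 4 °C DN53016_c0_g1 lies below its 6 °C libraries in Fantasy love and above them in Oregon.

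At the last step of the cooling the groups parted in Fantasy love, without passing the test. DN53016_c0_g1 averaged 91.0 CPM at 4 °C and 208 CPM at 6 °C, a log2 fold change of -1.19 ± 0.42 (edgeR adjusted p = 0.0738). DN40275_c0_g1 averaged 146 CPM at 4 °C and 100.3 CPM at 6 °C, a log2 fold change of 0.54 ± 0.22 (edgeR adjusted p = 0.117). In neither group did the 4 °C and 6 °C libraries overlap, and 10.6% of all genes likewise had every 4 °C library below every 6 °C library in Fantasy love, with 12.0% the other way. Called falls made up 7.19% of genes in this comparison and called rises 1.83%. The value of DN53016_c0_g1 hung on replicate 2 at 6 °C, its highest Fantasy love library: without it the log2 fold change was -0.70 (adjusted p = 0.281), and without replicate 1 or replicate 3 at 6 °C it was -1.43 (adjusted p = 0.0338) or -1.48 (adjusted p = 0.0249), which would be called.

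Oregon leaves had a similarly low control level of DN53016_c0_g1 and a higher one of DN40275_c0_g1. DN53016_c0_g1 had 151, 107 and 150 CPM at 6 °C and 542, 219 and 381 CPM at 4 °C, against 0.637, 1.33 and 1.14 CPM at 25 °C. DN40275_c0_g1 had 157, 163 and 137 CPM at 6 °C and 140, 103 and 114 CPM at 4 °C, against 9.98, 7.92 and 5.37 CPM at 25 °C. Every cold library again lay above every control library for both groups, and here too the share of all genes with such a gap was not counted. The ratio of means for DN53016_c0_g1 was 131 at 6 °C and 367 at 4 °C over 25 °C, and for DN40275_c0_g1 it was 19.6 at 6 °C and 15.3 at 4 °C. In Oregon 28.3% of genes were called higher at 6 °C and 28.4% at 4 °C.

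From 6 to 4 °C the Oregon libraries went the other way from the Fantasy love libraries in DN53016_c0_g1. It averaged 380 ± 161 CPM at 4 °C and 136 ± 25.1 CPM at 6 °C in Oregon, a ratio of 2.80 with no overlap between the libraries. DN40275_c0_g1 averaged 119 ± 19.1 CPM at 4 °C and 152 ± 13.8 CPM at 6 °C, and these libraries overlapped. Called rises made up 0.91% of genes and called falls 1.32% in this Oregon comparison, while 14.1% of genes had every 4 °C library above every 6 °C library and 15.5% the reverse. Of all genes tested, 1.06% were lower at 4 °C than at 6 °C in every Fantasy love library and higher in every Oregon library, as DN53016_c0_g1 was, and 1.29% showed the opposite pair of directions. The difference between the cultivars was not tested, because the Oregon values chose the members.

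Set side by side, the cultivars differed in a different place for each group. DN53016_c0_g1 was 4.18-fold higher in Oregon than in Fantasy love at 4 °C, with no overlap, whereas the cultivars overlapped at 25 °C and at 6 °C. DN40275_c0_g1 was 7.02-fold higher in Oregon at 25 °C and 1.52-fold higher at 6 °C, both without overlap, and the cultivars overlapped at 4 °C. The share of all genes without overlap between the cultivars was not counted, so these gaps do not set DREB2B apart from other genes. Ordered by mean, DN53016_c0_g1 ran from Oregon at 4 °C through Fantasy love at 6 °C and Oregon at 6 °C, where neighbours overlapped, to Fantasy love at 4 °C, which overlapped with neither neighbour, and then the control groups, which overlapped. For DN40275_c0_g1 the 4 cold groups overlapped from each to the next, from Oregon at 6 °C through Fantasy love at 4 °C and Oregon at 4 °C to Fantasy love at 6 °C, and stood apart from Oregon at 25 °C and, lowest, Fantasy love at 25 °C.

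On the deposited TPM scale, which is per transcript length, DN53016_c0_g1 averaged 41.2 ± 12.9 TPM at 6 °C and 23.0 ± 0.595 TPM at 4 °C in Fantasy love, against 0.250 ± 0.231 TPM at 25 °C. DN40275_c0_g1 averaged 43.0 ± 6.01 TPM at 6 °C and 75.5 ± 13.9 TPM at 4 °C, against 0.400 ± 0.0436 TPM at 25 °C. In Fantasy love at 6 °C, 92.4% of tested genes had a lower mean TPM than DN53016_c0_g1 and 92.7% a lower one than DN40275_c0_g1, and at 25 °C these shares were 23.8% and 28.7%. In Oregon DN53016_c0_g1 reached 29.8 TPM at 6 °C and 81.8 TPM at 4 °C, against 0.173 TPM at 25 °C, while DN40275_c0_g1 reached 64.5 and 51.5 TPM, against 2.43 TPM.

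The balance of the 2 groups within a library was followed as the log2 ratio of DN53016_c0_g1 to DN40275_c0_g1, each as (count + 0.5) per base of listed length. In Fantasy love the mean log2 ratio was 1.08 ± 0.67 at 6 °C and -0.52 ± 0.27 at 4 °C, against 0.06 ± 1.08 at 25 °C (SD, n = 3 each). All 3 libraries at 6 °C were above 0, at 0.89, 1.83 and 0.53, and all 3 at 4 °C were below it, at -0.43, -0.32 and -0.82. The ratio at 4 °C was lower than at 6 °C by a log2 difference of -1.61, with an exact two-sided permutation p of 0.1, the smallest that 3 against 3 libraries allow (0.3 after adjustment over 3 comparisons). The 25 °C libraries overlapped with both cold groups, with differences of 1.02 at 6 °C (exact permutation p = 0.3, adjusted 0.45) and -0.58 at 4 °C (exact permutation p = 0.5, adjusted 0.5). In Oregon the ratio was -0.03 ± 0.39 at 6 °C and 1.74 ± 0.45 at 4 °C, against -2.74 ± 0.90 at 25 °C, and no 2 of these groups overlapped.

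At 6 °C, which of the 2 groups was the more abundant depended in some libraries of both cultivars on the length used. In every library at 4 °C and at 25 °C the sign of the log2 ratio was the same from counts per listed length and from TPM. The Fantasy love mean at 25 °C, 0.06 from counts, still changed sign. From the deposited TPM the mean log2 ratio was -0.09 at 6 °C and -1.70 at 4 °C, against -1.13 at 25 °C, in Fantasy love. It was -1.13 at 6 °C and 0.61 at 4 °C, against -3.85 at 25 °C, in Oregon. These values are lower than those from counts by a little over 1 throughout, and the order of the 3 temperatures is the same on both scales within each cultivar. The listed and the implied length disagreed for DN40275_c0_g1. Comparing its counts and TPM with those of other genes gave an implied length of 1756 to 1888 bases in the Fantasy love libraries and 1898 to 2046 bases in the Oregon libraries, far under the listed 3973 bases. For DN53016_c0_g1 the implied length averaged 3707 to 3846 bases over the 6 groups, near the listed 3596. How the authors computed the length behind their TPM is not given in the sources used here.

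**Figure D2:**
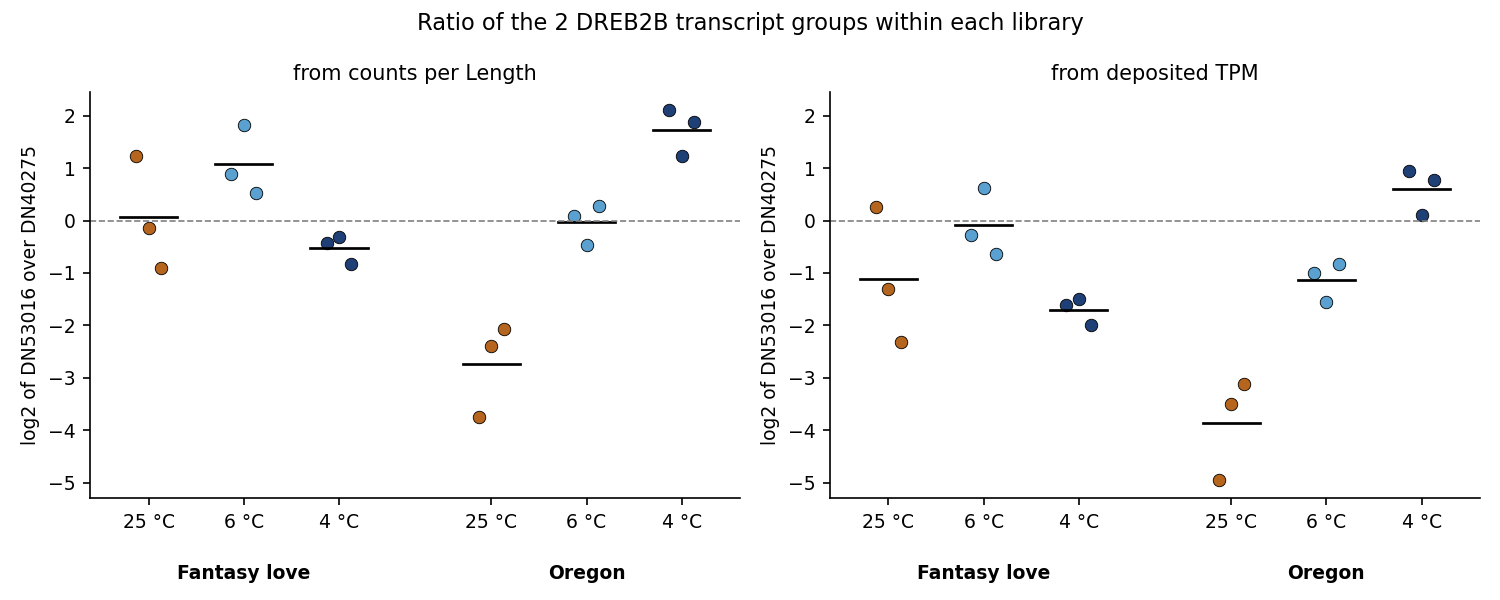
Log2 ratio of DN53016_c0_g1 to DN40275_c0_g1 within each library, from counts per listed length (left) and from the deposited TPM (right). Points are libraries, bars are means of 3 and the dashed line marks equal levels. On both scales the Fantasy love ratio is lower at 4 °C than at 6 °C, and the Oregon ratio is higher.

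Across all 18 libraries the log2 CPM of the 2 groups had a Pearson correlation of 0.919 and a Spearman correlation of 0.598, a description over libraries that share cultivars, temperatures and the same normalisation. It rests on the gap between the 25 °C libraries and the cold ones: over the 12 cold libraries alone the correlation was -0.317. Among 25019 tested genes with a protein name or a best protein hit, DN40275_c0_g1 was at rank 565 in likeness to DN53016_c0_g1, and DN53016_c0_g1 at rank 572 in likeness to DN40275_c0_g1. As many as 877 and 904 genes reached a correlation of 0.9 or more with DN53016_c0_g1 and with DN40275_c0_g1.

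The genes most like each group were different. Closest to DN53016_c0_g1 was NAC100 (DN46041_c0_g3), a NAC transcription factor, with a correlation of 0.985. NAC100 averaged 63.6 CPM at 6 °C and 28.2 CPM at 4 °C in Fantasy love, against 0.959 CPM at 25 °C, and 41.8 and 64.2 CPM in Oregon, against 0.447 CPM. Next came thioredoxin reductase NTR2 (DN49023_c0_g1, 0.983), an ndrB-like protein kinase (DN54810_c1_g2, 0.982), an F-box protein named At1g61340 (DN53676_c0_g1, 0.982) and a hypothetical protein (DN36378_c0_g1, 0.981). Closest to DN40275_c0_g1 was a cytosolic pyruvate kinase (DN32222_c1_g2, 0.986), an enzyme of glycolysis. It averaged 32.0 CPM at 6 °C and 47.9 CPM at 4 °C in Fantasy love, against 0.0578 CPM at 25 °C, and 81.0 and 71.8 CPM in Oregon, against 1.0 CPM. It was followed by a TOM1-like protein (DN52059_c1_g1, 0.983), a hypothetical protein (DN35206_c0_g2, 0.980), ribosomal protein L27 (DN37347_c0_g1, 0.980) and a tryptophan synthase beta chain (DN39727_c1_g2, 0.978).

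The 3 other DREB genes that could be tested went the opposite way from DREB2B. The table holds 6 further rows named for the DREB or CBF family. Of these, 3 had too few counts to be tested: a pair of DREB1D rows with 27 and 29 counts over all libraries, and a DREB2E-like row (DN36708_c0_g1) with 23. The DREB2E-like row had 0, 5 and 2 counts at 6 °C and 0, 3 and 0 at 4 °C in Fantasy love, and 0, 7 and 0 at 6 °C and 4, 2 and 0 at 4 °C in Oregon, against 0 in all 6 libraries at 25 °C. Its counts were thus all in cold libraries, but too few for a test. The 3 that were tested all carry the name DREB3, another AP2 factor, and all 3 fell in Fantasy love at both 6 °C and 4 °C, where 16.6% and 21.6% of all genes were called lower. Their median log2 fold change was -3.95 at 6 °C and -7.64 at 4 °C (-7.35 with a group of 0 counts set at its bound), against 0.30 and 0.39 over all genes. With so few counts in the cold, DN52192_c2_g2 and DN42056_c1_g2 passed the count filter through their 25 °C libraries. Their fall was thus partly set by the filter, and the shared direction and the medians of the 3 genes are descriptions. The best hits of DN57107_c1_g3 and DN42056_c1_g2 are named TINY-like and ERF023-like, after other AP2 factors, so the DREB3 name is itself approximate.

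DREB3 DN57107_c1_g3 had 0.225, 0.909 and 0.385 CPM at 6 °C and 0 counts in all 3 libraries at 4 °C in Fantasy love, against 6.75, 5.65 and 11.0 CPM at 25 °C. The log2 fold change was -3.95 ± 0.72 at 6 °C (edgeR adjusted p = 0.000365), and at 4 °C the gene was at least 163-fold lower, taking 3 counts over the group as the floor. DREB3 DN52192_c2_g2 averaged 0.809 ± 0.964 CPM at 6 °C, against 4.43 ± 1.22 CPM at 25 °C, a fall partly set by the count filter. At 4 °C it had 1 count in all, against 234 at 25 °C, a 287-fold lower level with a 95% counting interval of 51.0 to 11400. DREB3 DN42056_c1_g2 had 2 counts at 6 °C and 1 at 4 °C, against 100 at 25 °C, a 49.2-fold (13.3 to 412) and a 123-fold (21.5 to 4900) lower level. Such bounds and intervals cover counting error alone, and those of DN52192_c2_g2 and DN42056_c1_g2 do not allow for the filter. In Oregon the 3 genes averaged 0 to 0.326 CPM at 6 °C and 0 to 0.440 CPM at 4 °C, against 0.992 to 6.17 CPM at 25 °C.

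Genes named for regulators of DREB2 and CBF were called in shares near those of all genes. Of 67 such rows 65 were tested. In Fantasy love 19 rose and 8 fell at 6 °C, beside 23.8% higher and 16.6% lower among all genes, and 20 rose and 12 fell at 4 °C, beside 28.5% higher and 21.6% lower. Without replicate 2 at 6 °C, 16 rose and 13 fell there. Their median log2 fold change was 0.29 at 6 °C and 0.32 at 4 °C, against 0.30 and 0.39 over all genes. In Oregon 15 were called higher and 15 lower at 6 °C, and 14 and 16 at 4 °C, beside 28.3% higher and 20.1% lower over all genes at 6 °C and 28.4% and 20.6% at 4 °C.

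Among the regulators, SRO3 (DN53738_c1_g1) had the highest mean level and, in both Fantasy love comparisons, the lowest p. The SRO proteins are relatives of RCD1, which binds DREB2A in Arabidopsis. SRO3 had 209, 207 and 1280 CPM at 6 °C and 285, 698 and 726 CPM at 4 °C, against 6.81, 4.997 and 9.70 CPM at 25 °C. All cold libraries were above all controls, with replicate 3 at 6 °C far above the other libraries of its group. The log2 fold change was 6.30 ± 0.67 at 6 °C (edgeR adjusted p = 1.01e-06) and 6.31 ± 0.67 at 4 °C (edgeR adjusted p = 5.76e-07).

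Other regulators, a selection from the list, are given here after their values were seen. A second SRO3 row (DN41323_c0_g2) and an SRO2 row (DN48064_c4_g1) rose as well in Fantasy love, by 3.31 ± 0.62 and 4.48 ± 0.72 on the log2 scale at 6 °C and by 4.49 ± 0.65 and 5.30 ± 0.74 at 4 °C. So did DN53724_c0_g2, whose best hit is an SRO3 protein, by 3.99 ± 0.62 at 6 °C and 5.31 ± 0.65 at 4 °C. RCD1 itself went down: DN51288_c0_g1 averaged 7.17 CPM at 6 °C and 4.52 CPM at 4 °C, against 23.6 CPM at 25 °C (edgeR adjusted p = 0.00113 and 4.76e-05). The second RCD1 row (DN54319_c0_g3) averaged 113 CPM at 6 °C, which did not pass (edgeR adjusted p = 0.0557), and 64.8 CPM at 4 °C, which did (0.000490), against 189 CPM at 25 °C. Rows named DRIP2, the ubiquitin ligase that marks DREB2A for degradation, numbered 3 among those tested. Of these, DN44088_c0_g3 was called lower in Fantasy love at 4 °C, with 11.4 ± 0.595 CPM against 29.6 ± 4.14 CPM at 25 °C (log2 fold change -1.38 ± 0.31, edgeR adjusted p = 0.00121). No DRIP2 row was called at 6 °C. The BPM rows called in Fantasy love went the other way, at 4 °C alone. They were DN45150_c1_g3 (log2 fold change 1.39 ± 0.50) and DN40445_c1_g3 (1.10 ± 0.31), and the other BPM rows were not called. CAMTA rows called against 25 °C in Fantasy love were higher as well, and others were not called. DN53958_c0_g2 (1.31 at 6 °C and 1.26 at 4 °C) and DN53528_c0_g1 (3.39 and 3.56, on 3 counts at 25 °C) were called at both temperatures. The CAMTA4 rows DN35940_c0_g1 (1.12) and DN42548_c1_g6 (1.41) were called at 6 °C alone, with -0.15 and -0.06 at 4 °C. HSFA1 (DN52506_c2_g1), the heat stress factor upstream of DREB2A in Arabidopsis, rose to 30.3 CPM at 6 °C and 40.6 CPM at 4 °C, against 14.2 CPM at 25 °C (edgeR adjusted p = 0.000101 and 2.16e-06). The other HSFA1 and HSFA1A rows differed: of all 6 tested, 3 were called higher at 6 °C and 4 at 4 °C, none lower, and DN51163_c0_g5 (-0.32 and 0.31 on the log2 scale) and DN48039_c3_g5 (-0.27 at 6 °C) were called at neither. The 5 tested ICE1 rows split. DN49494_c0_g1 averaged 7.62 CPM at 6 °C and 1.05 CPM at 4 °C, against 20.2 CPM at 25 °C (edgeR adjusted p = 0.0194 and 3.62e-06), and DN53571_c0_g3 was called lower at 4 °C alone (log2 fold change -5.96 ± 0.82). DN39794_c2_g2 was called higher at both temperatures (1.28 and 1.37), as was DN53571_c0_g5 (3.03 and 3.11), and DN53571_c0_g2 was called higher at 4 °C (1.03). The list also holds nuclear transcription factor Y subunits, which rose, fell or were not called. At 6 and 4 °C, NFYC1 DN46322_c0_g1 gave -5.93 and -5.39 and NFYB3 DN41465_c2_g1 -2.56 and -2.69, all called lower. A subunit A-3-like row (DN54477_c1_g2) gave 4.72 and 6.32 and NFYB8 DN54972_c0_g2 2.22 and 2.51, all called higher.

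Classes of gene known as targets of DREB2 and CBF factors, such as dehydrins, late embryogenesis abundant (LEA) proteins, galactinol synthases and HSFA3, included some of the larger rises. Of 22 rows 20 were tested. In Fantasy love 11 rose and 2 fell at 6 °C, where 23.8% of all genes rose and 16.6% fell. At 4 °C 9 rose and 1 fell, where 28.5% of all genes rose and 21.6% fell, with medians of 2.63 and 0.91 on the log2 scale against 0.30 and 0.39 over all genes. Without replicate 2 at 6 °C, 11 rose and 4 fell there. Without replicate 1 at 4 °C, 2 genes fell at 4 °C. In Oregon 10 were called higher and 3 lower at 6 °C, and 11 and 3 at 4 °C, beside 28.3% higher and 20.1% lower over all genes at 6 °C and 28.4% and 20.6% at 4 °C. Galactinol synthases, which make the donor for raffinose sugars, had 6 tested rows, of which 4 were called higher and 2 lower at 6 °C, and 3 higher and none lower at 4 °C.

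The dehydrin COR410 (DN40128_c2_g5), a protein that shields membranes as cells lose water, had the highest mean of the target classes and the lowest p at 4 °C. It had 664, 296 and 599 CPM at 6 °C and 1663, 2380 and 2222 CPM at 4 °C, against 84.3, 103 and 68.2 CPM at 25 °C in Fantasy love. No groups overlapped, and COR410 was the higher at 4 °C. DN40275_c0_g1 also lay higher at 4 °C than at 6 °C in Fantasy love, without passing the test. In Oregon COR410 averaged 713 CPM at 6 °C and 1280 CPM at 4 °C, while DN40275_c0_g1 averaged 152 and 119 CPM. In Fantasy love the log2 fold change of COR410 over 25 °C was 2.61 ± 0.32 at 6 °C (edgeR adjusted p = 5.84e-06) and 4.62 ± 0.36 at 4 °C (edgeR adjusted p = 1.59e-08). Between 4 and 6 °C it was 2.01 ± 0.32 (edgeR adjusted p = 0.000557). Galactinol synthase GOLS1 (DN50002_c0_g2), with the lowest p at 6 °C, had 102, 193 and 565 CPM at 6 °C and 179, 253 and 221 CPM at 4 °C, against 2.44, 2.17 and 1.98 CPM at 25 °C. Its log2 fold change was 7.02 ± 0.57 at 6 °C (edgeR adjusted p = 5.41e-08) and 6.62 ± 0.56 at 4 °C (edgeR adjusted p = 4.45e-08).

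**Figure D3:**
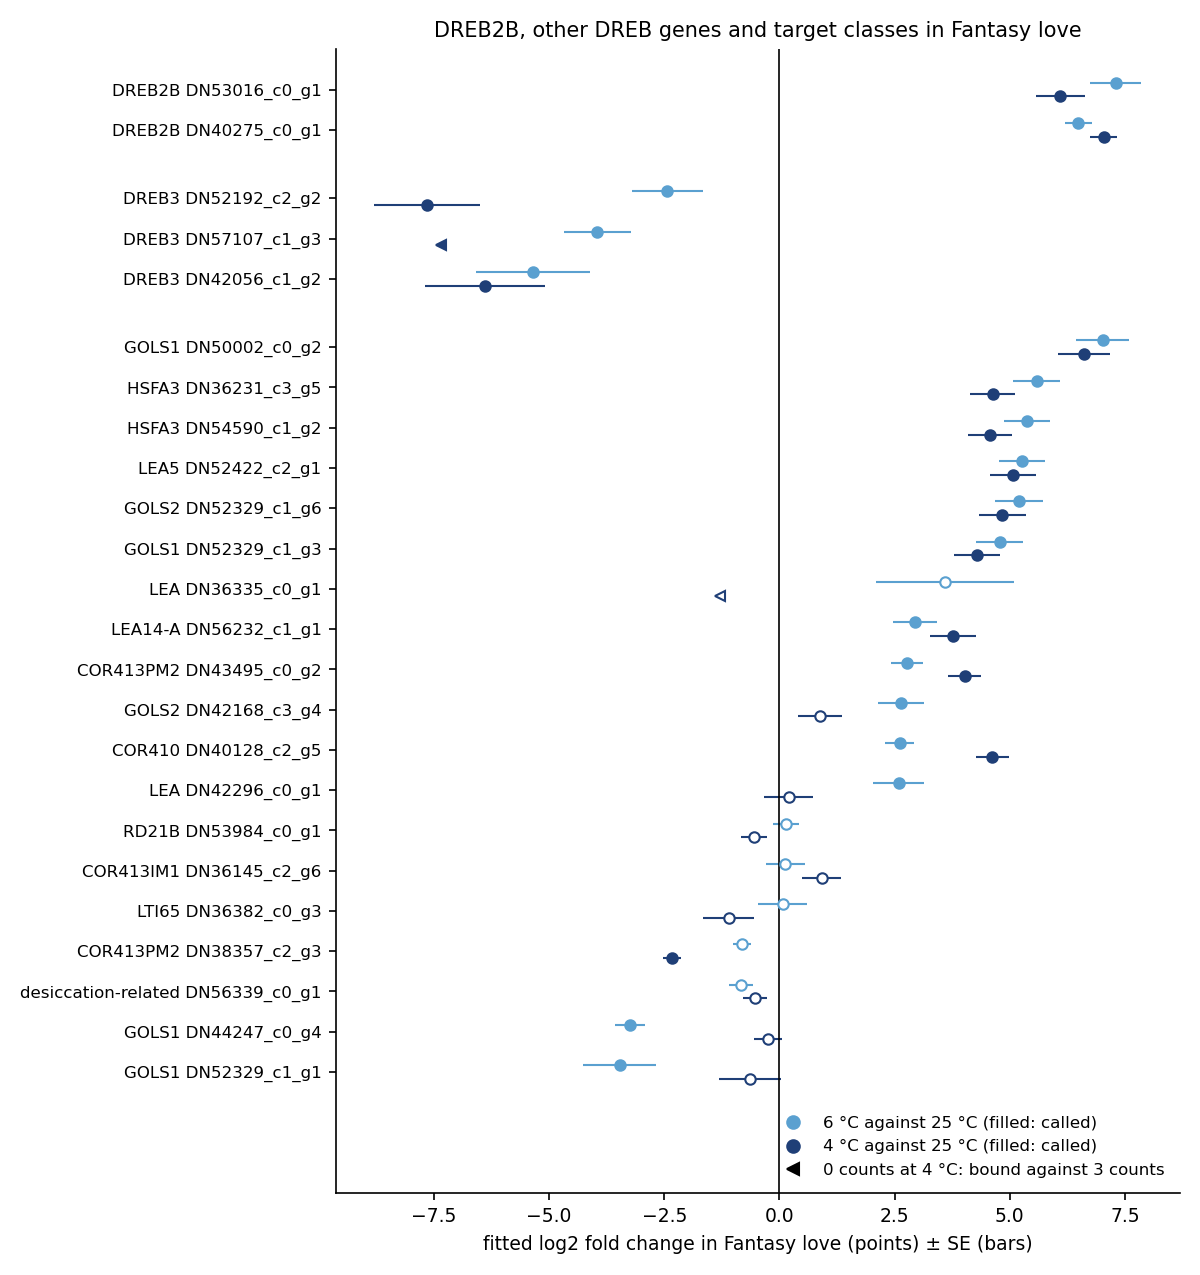
Fitted log2 fold change (points) ± SE (bars) in Fantasy love for the DREB2B groups, the 3 tested DREB3 genes and the tested genes of the target classes; LEA5 DN31550_c0_g1, with 0 counts in every Fantasy love group, is left out. Filled symbols passed the call, and triangles are bounds against 3 counts where a group had 0. Both DREB2B groups lie right of 6, all DREB3 points lie left of -2, and most target genes lie between 2 and 7.5 at 6 °C.

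Of all the list genes, HSFA3 followed DN53016_c0_g1 most closely; it is named here after its values were seen. HSFA3 is a heat stress factor whose gene is a direct target of DREB2A in Arabidopsis, and the table has 2 rows with that name. DN54590_c1_g2 and DN36231_c3_g5 were at ranks 14 and 17 of those 25019 genes in likeness to DN53016_c0_g1, both with a correlation of 0.975 over the 18 libraries, and at ranks 782 and 950 in likeness to DN40275_c0_g1. DN54590_c1_g2 had 366, 1416 and 1333 CPM at 6 °C and 408, 711 and 665 CPM at 4 °C in Fantasy love, against 26.9, 25.0 and 23.2 CPM at 25 °C. In Oregon it had 1095, 1018 and 990 CPM at 6 °C and 2515, 898 and 1113 CPM at 4 °C, against 21.0, 10.8 and 15.9 CPM at 25 °C. As with DN53016_c0_g1, replicate 1 was the highest of the Oregon 4 °C libraries and replicate 2 the lowest. DN40275_c0_g1, COR410, GOLS1 and SRO3 (DN53738_c1_g1) had the same order there, so it does not set HSFA3 apart. At 6 °C in Fantasy love DN53016_c0_g1 had 336 CPM in replicate 2 and 145 CPM in replicate 3. Replicate 2 was the highest there for DN54590_c1_g2 too, but with replicate 3 close to it (1416 and 1333 CPM). The log2 fold change in Fantasy love was 5.38 ± 0.50 at 6 °C (edgeR adjusted p = 2.68e-07) and 4.57 ± 0.48 at 4 °C (edgeR adjusted p = 5.81e-07), with the 4 °C and 6 °C libraries overlapping (edgeR adjusted p = 0.232). DN36231_c3_g5 gave 5.59 ± 0.51 and 4.63 ± 0.49 on the same scale, and its highest library in Fantasy love at 6 °C was replicate 3, with 407 CPM against 392 CPM in replicate 2. In Oregon the 4 °C and 6 °C libraries of both HSFA3 rows overlapped, unlike those of DN53016_c0_g1. Their correlations over the 18 libraries include the gap between 25 °C and the cold, and were not computed over the cold libraries alone. The 2 HSFA3 rows may share reads, so they are not counted as separate observations.

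**Figure D4:**
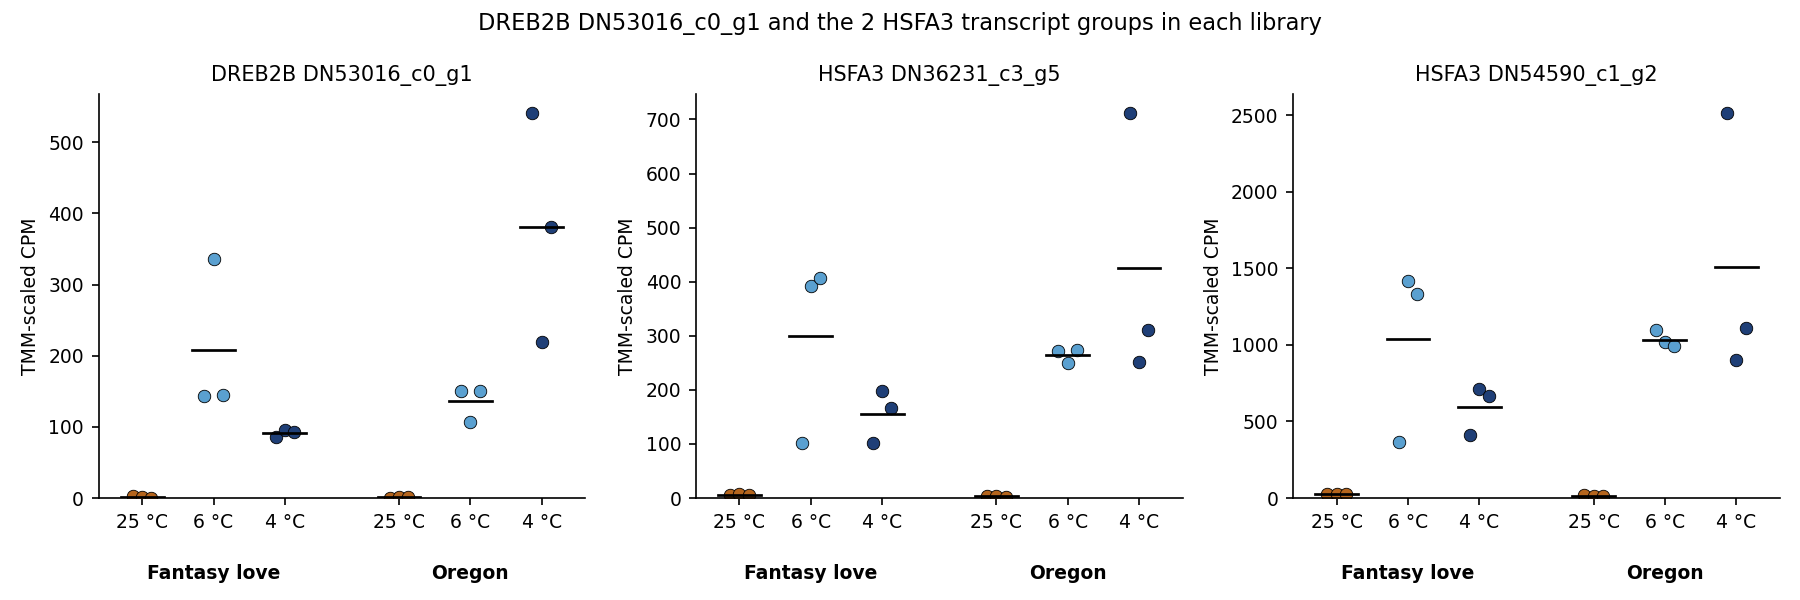
TMM-scaled CPM of DREB2B DN53016_c0_g1 and of the 2 rows named HSFA3 in each library, on linear axes that start at 0. Points are libraries and bars are means of 3. In Oregon at 4 °C replicate 1 is the highest in all 3 panels, as it also was for DN40275_c0_g1, COR410, GOLS1 and SRO3 (DN53738_c1_g1). In Fantasy love at 6 °C replicate 1 is the lowest, though for DN53016_c0_g1 only just (143 CPM against 145 CPM in replicate 3).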

How the data were processed

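The deposited table holds 2 values per library. The authors' estimated counts (expected counts, not normalised, 4.21% with decimals, quantification tool not stated) were rounded and analysed. The deposited TPM values, recognised by their sums per library of 981488 to 994410, were used to compare levels between genes. The Length column, per the file headers, is the length in bases. Reads were trimmed with cutadapt 1.9, per the submitters' processing notes.

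Genes were kept by filterByExpr (minimum count 10, minimum total 15), scaled by TMM and fitted with 6 group means over 18 libraries in edgeR 4.0.16 (R 4.3.3), with Benjamini-Hochberg adjustment. Each SE was taken from the F statistic (the size of the log2 fold change over the root of F). CPM are TMM-scaled, and correlations use log2 CPM with a prior count of 2. The code was tested on simulated data. Implied lengths compare count over TPM with genes of at least 1000 bases and 100 counts.

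Lists were found by words in the protein names; names with the cell differentiation protein RCD1 were left out. Named were the tested DREB and CBF genes, the list gene with the highest mean or lowest p in each Fantasy love comparison, and the 5 genes most like each member. Members and lists were chosen with earlier results of these data known. Where a gene had 0 counts in a group, the floor was 3 counts over the group, and with 1 to 3 counts a 95% exact interval was used.

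The alternatives were DESeq2 1.42.0 size factors and its Wald test, quantile normalisation with limma 3.58.1, no filter, 50 counts in 3 libraries, the 2 groups compared alone, a replicate block, and leaving out each Fantasy love library compared. Replicate numbers did not pair the libraries. Python 3.11.15, pandas 2.3.3, numpy 2.4.6, scipy 1.17.1 and matplotlib 3.10.9 were used.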

Additional observations from a re-analysis of the deposited data

Results flagged for a closer look

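DREB2B DN53016_c0_g1 went in opposite directions between 6 and 4 °C in the 2 cultivars. Its mean log2 CPM at 4 °C minus that at 6 °C was -1.07 in Fantasy love and 1.41 in Oregon, a difference of -2.48. It was picked out because every Fantasy love library at 4 °C lay below every one at 6 °C, and every Oregon library at 4 °C lay above every one at 6 °C. The difference was not tested, since the Oregon values chose the gene. Of all genes tested, 1.06% had this pattern and 1.29% had its mirror image.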

How the results depend on the processing

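The 52 alternatives run for the rise of both DREB2B groups at 6 and 4 °C over 25 °C in Fantasy love kept direction and call, with adjusted p of at most 0.000518. The lower level of DN53016_c0_g1 at 4 °C against 6 °C (-1.19, not called) was called without the filter on low counts (-1.24, adjusted p = 0.0209). With 1 library left out it ranged over -1.48 to -0.70, and the cause was not tested. For DN40275_c0_g1 in that comparison, quantile normalisation gave an adjusted p of 0.0335 at a log2 fold change of 0.68, under the fold minimum. Fitted on the 2 groups compared alone, 17 regulators were called at 6 °C in place of 27, and over all genes 6222 rose and 6077 fell in place of 12279 and 8591; at 4 °C against 6 °C, 43 rose and 597 fell in place of 946 and 3715. The correlation of the 2 DREB2B groups was 0.598 by Spearman's rho, and -0.317 over the 12 cold libraries, an alternative chosen after seeing the data; with 1 library left out it ranged over 0.903 to 0.937. Same-numbered libraries had residual correlations of -0.066 to 0.104, so the numbers do not pair them. With a replicate block, DN53016_c0_g1 gave 7.35 and 6.16 at 6 and 4 °C over 25 °C and -1.19 between 4 and 6 °C (adjusted p = 0.104), and DN40275_c0_g1 gave 6.50, 7.04 and 0.55, with no call changed. Low counts at 25 °C (7 to 45) limit the size of the fold changes of both groups.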
